A study of Mus musculus with 6 samples.

Results

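The clustered protocadherins are the neural adhesion genes that lie side by side on mouse chromosome 18. Members were taken by symbol, as every row of the gene count table named for the alpha, beta or gamma cluster with a plain isoform number. This gave 53 of the 48440 rows, with 12 genes of the alpha cluster, 22 of the beta cluster and 19 of the gamma cluster. In GRCm38 with the GENCODE M21 annotation they span chr18:36930184-37841873, all on the plus strand. The alpha genes begin at 36930184, the beta genes at 37264938 and the gamma genes at 37661793. Isoforms whose symbol carries a row suffix (*Pcdha11*, *Pcdhga8* and *Pcdhgb8*, 6 rows with 9 to 28 counts per library in sum) did not match the rule, and *Pcdhgc4* was not analysed here.

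RNA was sequenced from L3/4 dorsal root ganglia (DRGs) of male WT mice. AAV5 is an adeno-associated virus used to carry a gene into neurons. In 3 libraries the ganglia had been microinjected with AAV5-*Gfp*, which carries green fluorescent protein, and in 3 libraries with AAV5-*NIS V1 and V2*, a mixture of viruses that carry both variants of the nerve injury-specific long noncoding RNA *NIS-lncRNA*. The comparison asked which genes followed the overexpression of that RNA without a nerve injury. The deposited text gives collection at 5 weeks after microinjection and the comparison at 4 weeks. Virus preparation and transcripts differed together between the groups and cannot be told apart, and no source used here says whether a library is 1 animal or a pool, so p-values measure the spread between these libraries only. The level of *NIS-lncRNA* itself was not analysed here and does not serve as a check of the labels. Total counts were between 32025612 and 34764282 per library, and 18593 genes passed a filter on low counts. All 15 pan-neuronal markers and satellite glial markers such as *Fabp7* had counts in every library.

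Clustered protocadherins are cadherin-like proteins of the neuronal surface that bind their own kind on other cells. Each neuron switches on a subset of the isoforms by choosing among many promoters, a choice that CTCF and cohesin bring about by looping the promoters to distant enhancers, while the C-type isoforms are used by most neurons of a region. The mixture gives neurons an identity by which their branches avoid one another, and loss of the gamma cluster is known to cost spinal interneurons their survival. Sensory neurons of the DRG express members of the clusters too.

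How the members share sequence bears on every count below. An alpha or gamma transcript joins 1 isoform-specific first exon to 3 constant exons, whereas a beta gene is mainly a single exon of its own. In the annotation all 14 alpha genes hold the same 2860 bases in 3 shared exon blocks (chr18:37156155-37187657), and all 22 gamma genes the same 2116 bases in 3 blocks (chr18:37825021-37841870), while no base was common to the beta genes. The 50-base windows of each gene were compared with those of the other clustered genes and of further annotated genes that share their exons. For alpha genes, only 9.94% to 51.8% of the windows (median 39.7%) occurred in none of these, with *Pcdha4* lowest. The share was 34.7% to 68.6% for gamma genes (median 55.6%) and 88.0% to 100% for beta genes (median 95.7%). A read from a constant exon therefore cannot be given to 1 alpha or gamma isoform, and how the counting treated such reads is not given in the sources used here. Antisense exons lie over exons of 11 members, and whether the counting used the strand is not given either.

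Most members were rarely read in these DRGs. The 34 members that failed the filter had 0 to 23 counts in any library, and 19 members were tested, 9 of the alpha, 3 of the beta and 7 of the gamma cluster. At most 3 counts in every library were found for *Pcdha8*, *Pcdhb1*, *Pcdhb5* and *Pcdhgc5*. *Pcdhb1* had 0 counts in all 6 libraries, and a count of 0 allows up to 3 counts, or 0.0863 to 0.0937 CPM (counts for each 1000000 counts of a library), which covers counting error only. These members cannot be called absent at this depth.

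**Figure D1:**
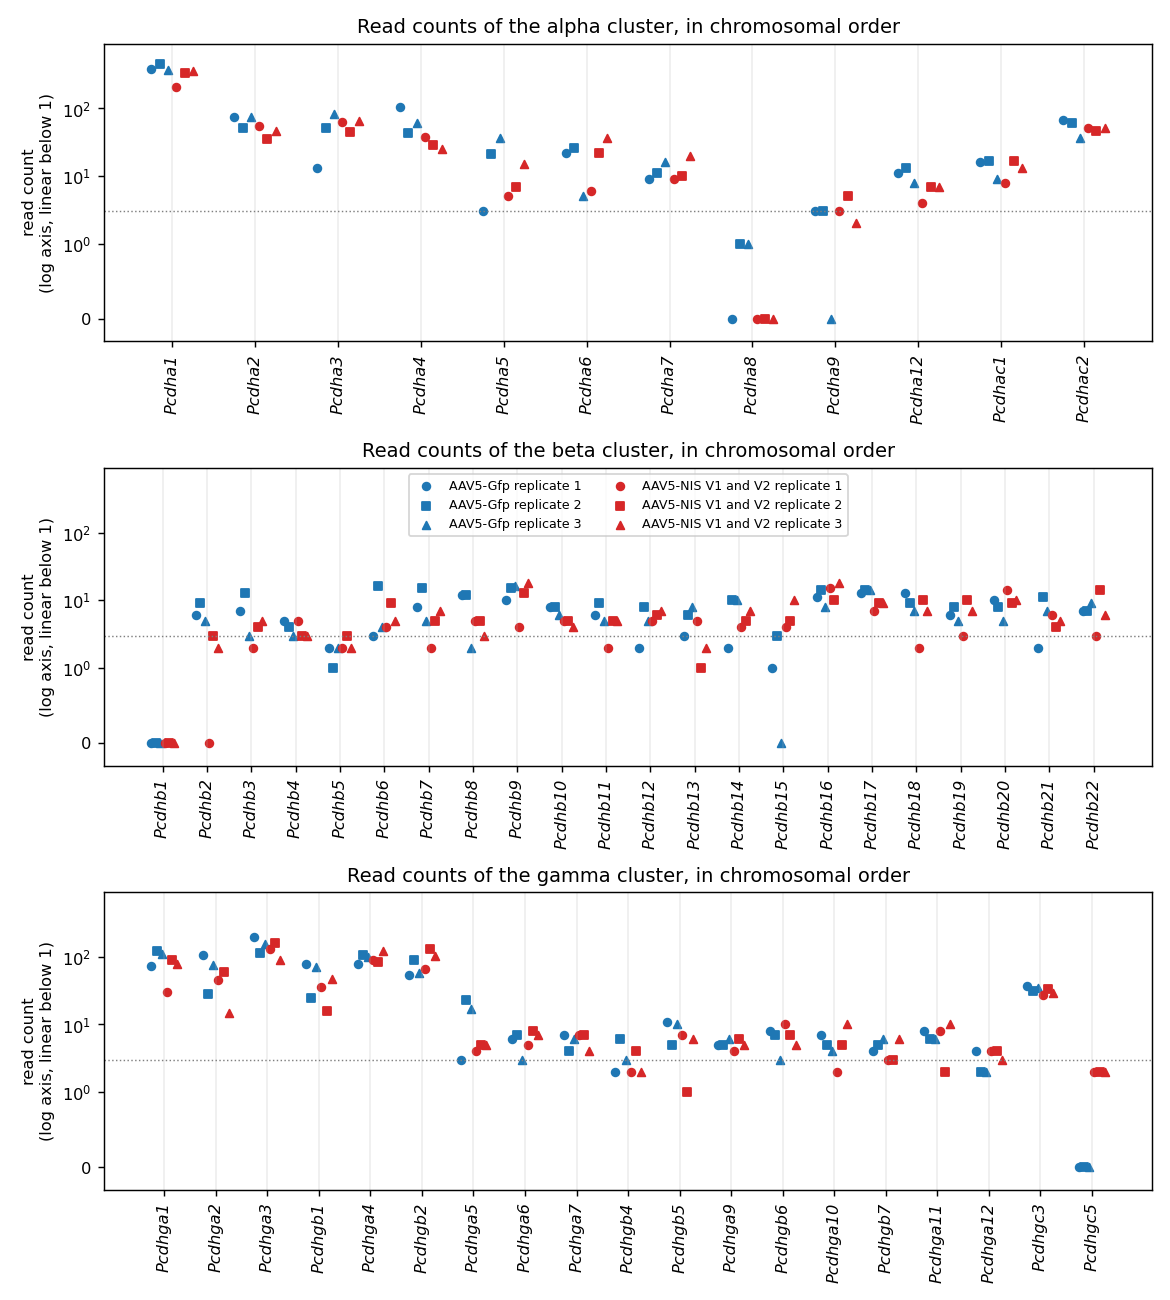
Read counts of the 53 members in each of the 6 libraries, with the members in chromosomal order along each x axis and the count on a logarithmic y axis that is linear below 1. The dotted line marks 3 counts. The first 4 alpha genes and the first 6 gamma genes stand above most of the genes that follow them, and the beta genes stay at 18 counts or fewer.

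Levels were compared between genes per kilobase of exon that no other gene on the same strand covers, as the mean CPM of the 6 libraries. On that scale the median was 0.222 CPM per kilobase for the alpha cluster (0.0041 to 4.27), 0.0446 for the beta cluster (0 to 0.125) and 0.0763 for the gamma cluster (0.0065 to 1.85). Over all exonic bases, constant exons included, the medians were 0.0969 for alpha and 0.0423 for gamma, so that the gamma cluster was then no higher than the beta cluster. *Pcdha1* led the alpha genes at 4.27 CPM per unique kilobase. *Pcdha4* followed at 3.09, a level that rests on 494 bases because another annotated gene covers most of its first exon. *Pcdhga4* (1.85) and *Pcdhga3* (1.65) led the gamma genes, and *Pcdhb9* (0.125) and *Pcdhb20* (0.0790) the beta genes.

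The isoforms nearest the 5′ end of the alpha and gamma clusters held most of the counts. *Pcdha1*, the first alpha gene, took 46.5% to 60.4% of the alpha counts of a library. The first 4 alpha genes together took 77.3% to 84.0%. In the gamma cluster the first 6 genes (*Pcdhga1*, *Pcdhga2*, *Pcdhga3*, *Pcdhgb1*, *Pcdhga4* and *Pcdhgb2*) took 82.1% to 86.0%, and the other 13 genes 14.0% to 17.9%. The libraries of both groups overlapped for each of these shares. The share of the first 4 alpha genes was 81.8% ± 2.09 with AAV5-*Gfp* and 79.2% ± 1.77 with AAV5-*NIS V1 and V2* (SD, n = 3).

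**Figure D2:**
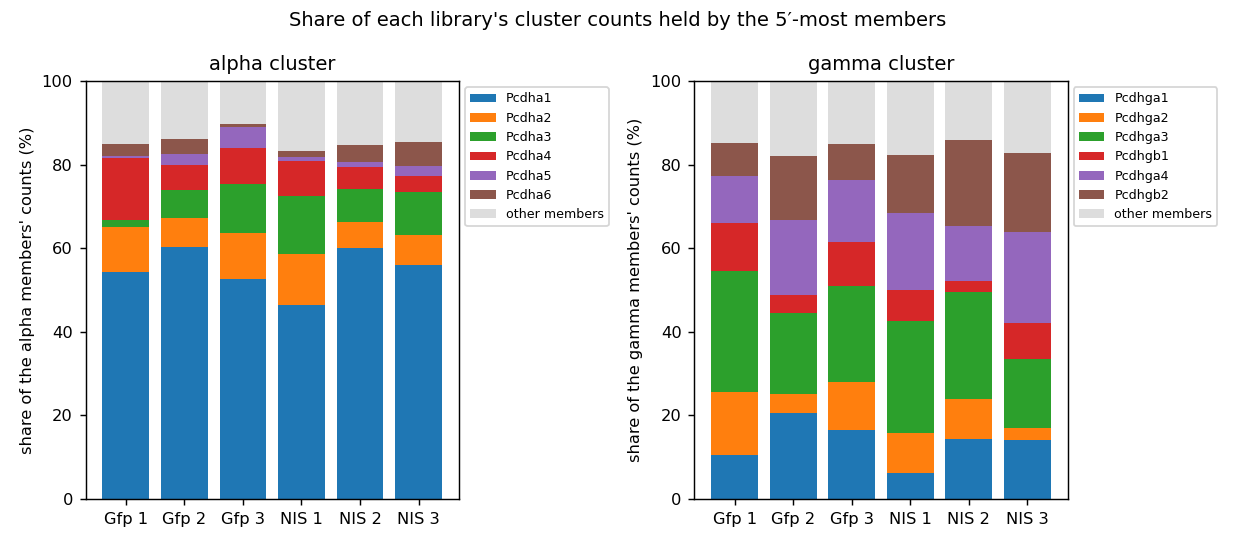
Percent of the summed alpha counts (left) and gamma counts (right) of each library that belong to the first 6 genes of the cluster, with the other members in grey. Gfp 1 to 3 are the AAV5-*Gfp* libraries and NIS 1 to 3 the AAV5-*NIS V1 and V2* libraries. *Pcdha1* holds between 46.5% and 60.4% of the alpha counts, while the makeup of the gamma counts varies from library to library.

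Between AAV5-*NIS V1 and V2* and AAV5-*Gfp* no clustered protocadherin passed an adjusted p of 0.05 in either direction with edgeR's quasi-likelihood test, whereas 10.1% of all tested genes were higher and 5.27% lower. At an unadjusted p under 0.05, 0 members were higher and 3 were lower (*Pcdha1*, *Pcdha4* and *Pcdhb17*), against 19.2% and 15.5% of all tested genes. limma-voom called 0 members, and DESeq2 called *Pcdha4* lower (adjusted p = 0.0275). The log2 fold change was below 0 for 14 of the 19 tested members, where it was below 0 for 50% of all tested genes. Its median was -0.27 over the tested members (alpha -0.17, beta -0.27, gamma -0.33), with a range from -1.22 to 0.55, and -0.0003 over all genes tested. Without a filter on low counts, 52 members could be fitted and the median was -0.30. Over all 53 members the mean CPM was lower with AAV5-*NIS V1 and V2* for 35 and higher for 17. That count includes the 34 members that failed the filter, and the 50% of tested genes is no base for it.

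Values in the following sentences are in the order of replicates 1, 2 and 3 of each group. *Pcdha1* had 385, 454 and 368 counts with AAV5-*Gfp* and 211, 335 and 360 with AAV5-*NIS V1 and V2*. Every AAV5-*NIS V1 and V2* library was below every AAV5-*Gfp* library, with replicate 3 just under the lowest of them and replicate 1 far below. The level was 12.3 ± 0.72 CPM with AAV5-*Gfp* and 8.98 ± 2.24 CPM with AAV5-*NIS V1 and V2* (SD, n = 3), a log2 fold change of -0.45 (SE 0.18) that did not pass the edgeR quasi-likelihood test after Benjamini-Hochberg adjustment (adjusted p = 0.133). It was -0.25 without AAV5-*NIS V1 and V2* replicate 1 and -0.12 when the libraries were scaled to pan-neuronal genes.

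*Pcdha4* had 104, 44 and 60 counts with AAV5-*Gfp* and 38, 29 and 25 with AAV5-*NIS V1 and V2*. The groups did not overlap, and AAV5-*Gfp* replicate 1 stood above the other 2 controls by a factor of more than 1.5. Its log2 fold change of -1.22 (SE 0.37) was the lowest of all tested members, with an adjusted p of 0.064 from edgeR's quasi-likelihood test. Without AAV5-*Gfp* replicate 1 it was -0.79, and over all alternatives the adjusted p ranged from 0.0275 (DESeq2) to 0.182.

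The other tested alpha isoforms differed in sign and overlapped between groups. *Pcdha2* had 76, 51 and 76 counts with AAV5-*Gfp* and 55, 35 and 47 with AAV5-*NIS V1 and V2* (log2 fold change -0.61, SE 0.27). *Pcdha6* had the highest log2 fold change of the cluster, 0.26 with an SE of 0.68, on 22, 26 and 5 against 6, 22 and 37 counts. *Pcdha12*, which failed the filter, had 11, 13 and 8 counts against 4, 7 and 7, without overlap.

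Single alpha isoforms varied widely among the control ganglia. *Pcdha3* had 13, 51 and 82 counts with AAV5-*Gfp*, a 6.52-fold range in CPM, and 63, 45 and 66 with AAV5-*NIS V1 and V2*. *Pcdha5* had 3, 21 and 36 counts with AAV5-*Gfp* and 5, 7 and 15 with AAV5-*NIS V1 and V2*. In AAV5-*Gfp* replicate 1 both neighbours were low while *Pcdha4*, which lies between them, was at its highest. The biological coefficient of variation that edgeR estimated from all 6 libraries had a median of 25.9% over the alpha members, 25.9% over the gamma members and 19.3% over the beta members. It was 13.1% over all genes tested and 18.3% over the 7951 genes in the same range of mean counts.

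No tested C-type isoform separated the groups. *Pcdhac1* had 16, 17 and 9 counts with AAV5-*Gfp* and 8, 17 and 13 with AAV5-*NIS V1 and V2* (log2 fold change -0.17, SE 0.38). *Pcdhac2*, the last alpha gene, had 67, 60 and 37 against 52, 47 and 52 counts (-0.15, SE 0.23). *Pcdhgc3* had 37, 31 and 35 against 27, 34 and 29 counts (-0.23, SE 0.21), the narrowest spread of the tested C-type isoforms among the AAV5-*Gfp* libraries. Their adjusted p-values were 0.767, 0.677 and 0.470 in edgeR's quasi-likelihood test. *Pcdhgc5* had 0 counts in every AAV5-*Gfp* library and 2 in every AAV5-*NIS V1 and V2* library, at or under the 3 counts that a 0 allows, and no fold is given.

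The beta genes are the least exposed to shared reads, and of the 3 that were tested *Pcdhb17* (chr18:37484795-37489454) was the most even between replicates. It had 13, 14 and 14 counts with AAV5-*Gfp* and 7, 9 and 9 with AAV5-*NIS V1 and V2*, without overlap. The log2 fold change was -0.74 (SE 0.29, adjusted p = 0.122 with edgeR's quasi-likelihood test). *Pcdhb16*, its upstream neighbour, leaned the other way with 11, 14 and 8 against 15, 10 and 18 counts (0.35, SE 0.34). *Pcdhb9* had 10, 15 and 16 against 4, 13 and 18 counts (-0.27, SE 0.49), and *Pcdhb20*, which failed the filter, 10, 8 and 5 against 14, 9 and 10. Both overlapped between groups. The other 18 beta genes had at most 16 counts in any library.

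No tested gamma gene separated the groups. *Pcdhga4* had 79, 107 and 99 counts with AAV5-*Gfp* and 89, 83 and 120 with AAV5-*NIS V1 and V2*, a log2 fold change of -0.001 (SE 0.19). *Pcdhga3* had 199, 114 and 153 against 129, 161 and 91 counts (-0.33, SE 0.29). *Pcdhgb2* had the highest value of all tested members, 0.55 (SE 0.28, adjusted p = 0.206 with edgeR's quasi-likelihood test), on 54, 90 and 57 against 67, 130 and 104 counts. AAV5-*Gfp* replicate 2 lay above AAV5-*NIS V1 and V2* replicate 1 for that gene, so the groups overlapped. *Pcdhgb1* had the lowest gamma value, -0.88 (SE 0.52), on 79, 25 and 71 against 36, 16 and 47 counts. *Pcdhga2* ranged from 28 to 105 counts among the AAV5-*Gfp* libraries and from 15 to 60 among the others.

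Over all 53 members the groups did not overlap for 9, of which 7 were lower with AAV5-*NIS V1 and V2* (*Pcdha1*, *Pcdha4*, *Pcdha12*, *Pcdhb2*, *Pcdhb10*, *Pcdhb11* and *Pcdhb17*) and 2 higher (*Pcdhb15* and *Pcdhgc5*). Among all tested genes such a separation was seen in 22% for the lower and 23.4% for the higher direction. Only 3 of the 9 (*Pcdha1*, *Pcdha4* and *Pcdhb17*) passed the filter. *Pcdhb2* had 6, 9 and 5 counts with AAV5-*Gfp* and 0, 3 and 2 with AAV5-*NIS V1 and V2*. *Pcdhb15* had 1, 3 and 0 against 4, 5 and 10 counts.

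**Figure D3:**
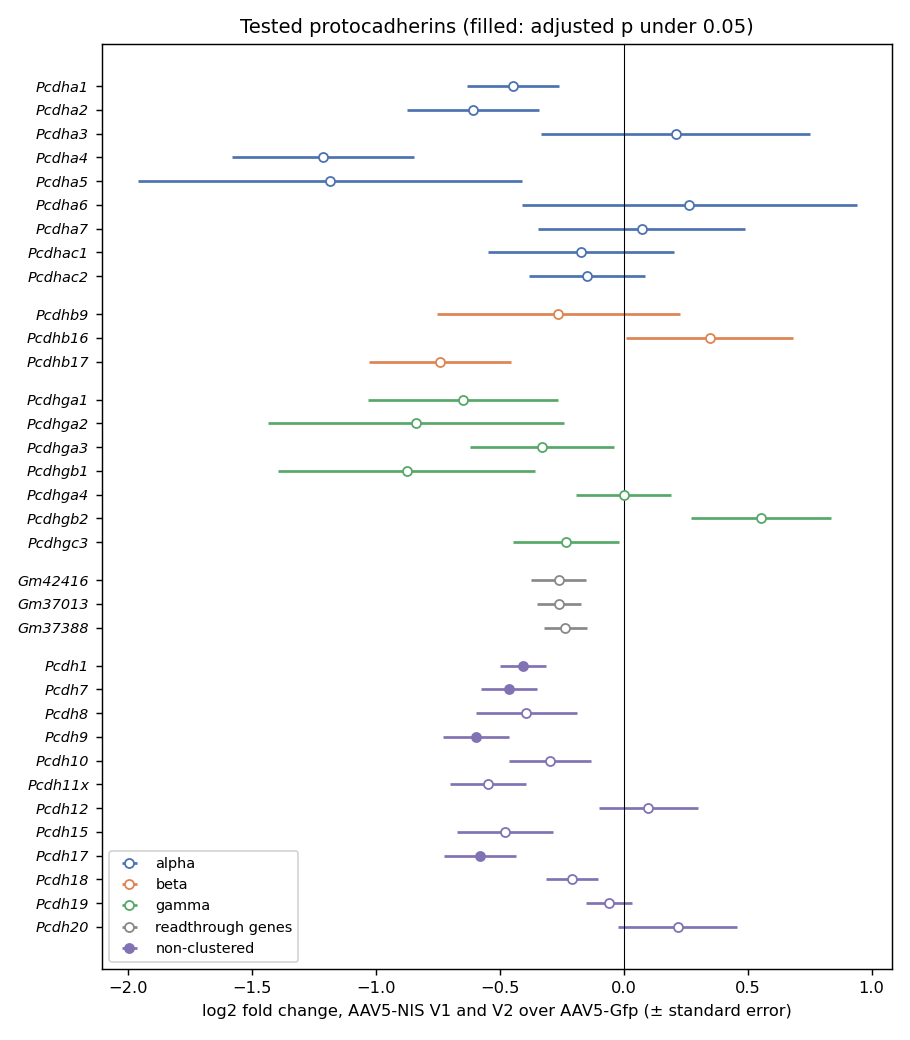
Log2 fold change of AAV5-*NIS V1 and V2* over AAV5-*Gfp* with its standard error for the 19 tested members, the 3 readthrough genes that overlap them, and the 12 non-clustered protocadherins. Filled points passed an adjusted p of 0.05 in edgeR's quasi-likelihood test. No member is filled, *Pcdha4* lies lowest at -1.22, and 4 non-clustered genes are filled.

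Summed over a cluster the counts were lower with AAV5-*NIS V1 and V2*. The alpha members held 709, 752 and 698 counts with AAV5-*Gfp* and 454, 559 and 644 with AAV5-*NIS V1 and V2*, or 22.0 ± 0.34 and 16.4 ± 2.50 CPM (SD, n = 3), a ratio of 0.748 without overlap. The beta members held 137, 200 and 129 against 99, 138 and 142 counts, a CPM ratio of 0.798. The gamma members held 690, 591 and 668 against 482, 628 and 549 counts, a CPM ratio of 0.828. Both of these sums overlapped between groups. All 53 members together held 1536, 1543 and 1495 against 1035, 1325 and 1335 counts, or 46.6 ± 1.87 and 36.7 ± 4.58 CPM, a ratio of 0.787 without overlap. These sums are carried by the abundant members, so no test is given for them.

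AAV5-*NIS V1 and V2* replicate 1 was the lowest library for each of the 3 clusters. Relative to a gene's mean over the 3 AAV5-*Gfp* libraries, the median log2 deviation of the 19 tested members was -0.41 in that library, -0.16 and -0.11 in the other 2 AAV5-*NIS V1 and V2* libraries, and 0.04, 0.09 and 0.09 in the AAV5-*Gfp* libraries. The alpha sum was even among the AAV5-*Gfp* libraries: its SD was 0.336 CPM, where the SDs of its members would give 1.91 CPM if they had varied independently. Without *Pcdha1* the values were 1.02 and 1.77 CPM. The gamma sum (2.50 and 2.37 CPM) and the beta sum (0.914 and 0.451 CPM) were not even in this way. Nor was the alpha sum in the AAV5-*NIS V1 and V2* libraries (2.50 and 2.36 CPM). With 3 libraries per group these values are a description only, and counting error was not separated from differences between the ganglia.

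The pan-neuronal genes were lower by a similar ratio. Their log2 fold change was below 0 for 15 of 15 markers (median -0.39), beside 50% of all tested genes. Of the markers 3 passed the adjusted p, beside 5.27% of all tested genes called lower. The summed level of the 15 markers ranged from 10649.5 to 11556 CPM with AAV5-*Gfp* and from 6889 to 9989.7 CPM with AAV5-*NIS V1 and V2*. The ratio was 0.786, and the level was again lowest in AAV5-*NIS V1 and V2* replicate 1. For each 1000 counts of the pan-neuronal list, the 53 members held 4.19, 4.18 and 4.14 counts with AAV5-*Gfp* and 4.56, 4.19 and 3.89 with AAV5-*NIS V1 and V2*. The means were 4.17 ± 0.024 and 4.21 ± 0.336 (SD, n = 3), a ratio of 1.01, and the groups overlapped. By cluster the ratio was 0.956 for alpha, 1.01 for beta and 1.07 for gamma. The pan-neuronal sum is carried by abundant markers such as *Nefm*, *Nefl* and *Tubb3* (2248, 2206 and 1463 CPM with AAV5-*Gfp*). Single markers ranged in log2 fold change from -0.93 to -0.20, so these ratios depend on that weighting. CPM are shares of a library. In such bulk tissue, fewer neurons, less RNA per neuron and a larger share of RNA from other cells cannot be told apart.

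**Figure D4:**
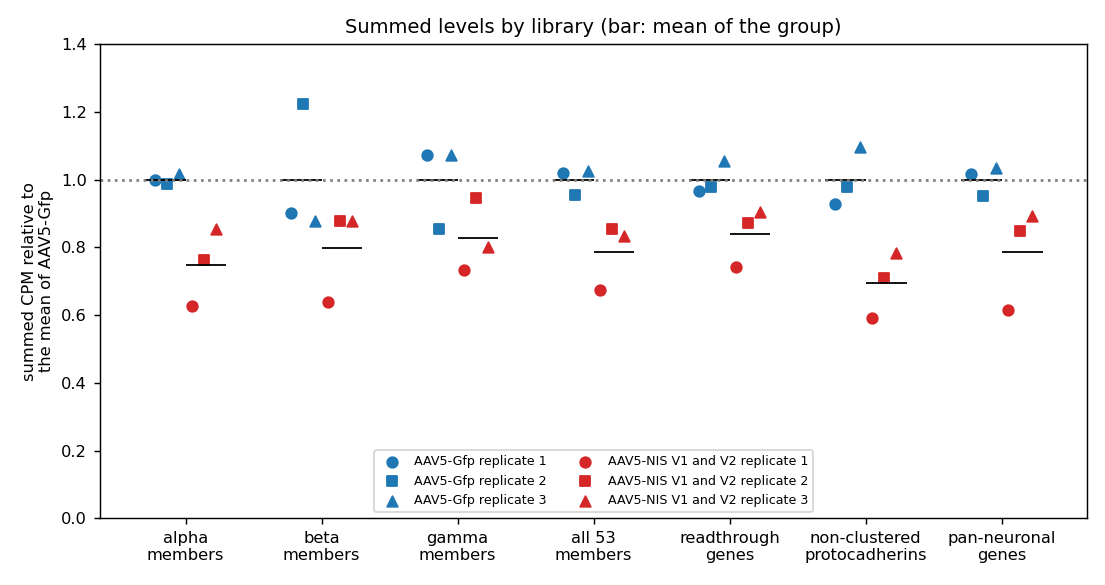
Summed CPM of each gene group in each of the 6 libraries, divided by the mean of the 3 AAV5-*Gfp* libraries, with bars at the group means. The 53 members (0.674, 0.853 and 0.834 in AAV5-*NIS V1 and V2* replicates 1, 2 and 3) and the pan-neuronal genes (0.616, 0.849 and 0.893) lie in the same range below 1.

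Most counts over the clusters belonged to genes that are not members. The annotation holds 3 readthrough genes that start in the alpha cluster and end in the constant exons of the gamma cluster, and every exonic base of each lies in exons of clustered genes. *Gm42416* (chr18:36952741-37840200) covers 2410 bases of the first exon of *Pcdha4* and 446 gamma bases. *Gm37013* (chr18:36969916-37833296) covers 222 bases of *Pcdha6* and 91 gamma bases, and *Gm37388* (chr18:36975941-37833296) covers 338 bases of *Pcdha7* and 91 gamma bases. They are not members and were singled out after their counts had been seen. Together they held 5295, 5756 and 5587 counts with AAV5-*Gfp* and 4146, 4932 and 5265 with AAV5-*NIS V1 and V2*, which is 3.45 to 4.01 times the counts of all 53 members in the same library.

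*Gm37013* alone had 2903, 3148 and 3058 counts with AAV5-*Gfp* and 2247, 2688 and 2865 with AAV5-*NIS V1 and V2*, on 313 exonic bases. In the AAV5-*Gfp* libraries this is 297 CPM per exonic kilobase, where *Gm42416*, which shares 446 gamma bases, had 3.77. *Gm37388* had 2071, 2232 and 2170 against 1634, 1937 and 2070 counts (154 CPM per exonic kilobase). All 3 readthrough genes were lower in every AAV5-*NIS V1 and V2* library than in any AAV5-*Gfp* library. Such a separation was seen in 22% of all tested genes. The log2 fold changes were -0.26 (SE 0.11), -0.26 (SE 0.09) and -0.24 (SE 0.09) for *Gm42416*, *Gm37013* and *Gm37388*. None passed the edgeR quasi-likelihood test (adjusted p = 0.142, 0.0866 and 0.105). With the libraries scaled to the pan-neuronal genes the log2 fold changes were 0.10, 0.10 and 0.13 in that order. With the readthrough genes added to the members the ratio of summed CPM was 0.828, in place of 0.787. Whether reads of the constant exons went to these genes was not tested.

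**Figure D5:**
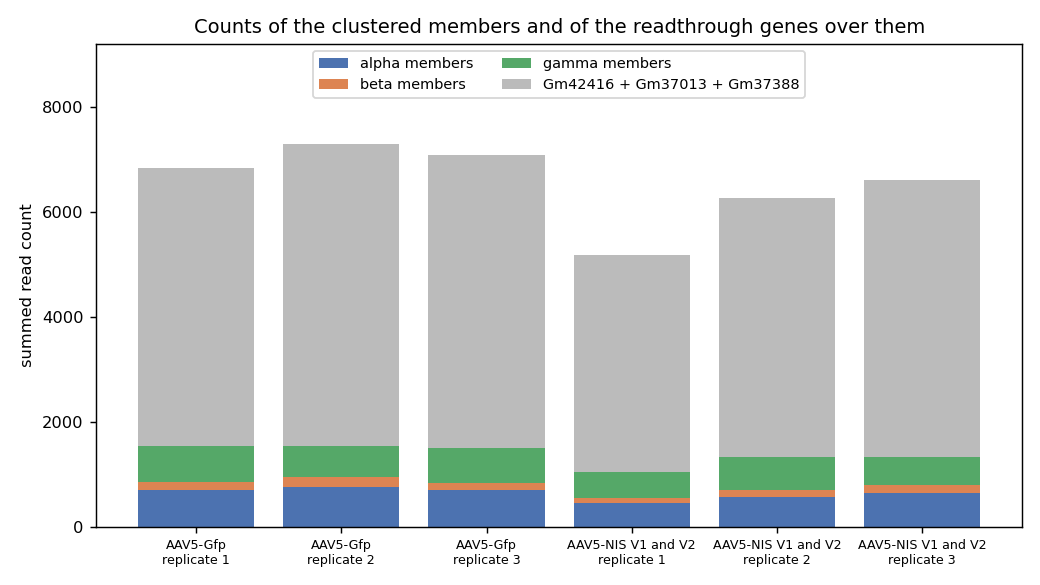
Summed read counts of the alpha, beta and gamma members and of the 3 readthrough genes in each library, stacked from 0. The grey readthrough part is 3.45 to 4.01 times as tall as the members together, and AAV5-*NIS V1 and V2* replicate 1 has the lowest column.

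The non-clustered protocadherins are related adhesion molecules that stand as single genes outside the clusters. Their levels ranged from 0.309 to 109.8 CPM per exonic kilobase with AAV5-*Gfp* (median 2.50). The median log2 fold change of the 12 tested genes was -0.40. At an adjusted p under 0.05, 10.1% of all tested genes were higher and 5.27% lower. Of the 12 genes, 0 were higher and 4 were lower. These were *Pcdh9* (-0.60, SE 0.13, adjusted p = 0.0296), *Pcdh1* (-0.41, SE 0.09, adjusted p = 0.0313), *Pcdh7* (-0.46, SE 0.11, adjusted p = 0.0380) and *Pcdh17* (-0.58, SE 0.15, adjusted p = 0.0400), all by edgeR's quasi-likelihood test. Without any 1 of the AAV5-*Gfp* replicates 1, 2 and 3 the number was 0, when 59, 0 and 0 genes of the whole table were called lower. Without AAV5-*NIS V1 and V2* replicate 2 it was 1, when 150 genes of the whole table were called lower. With the libraries scaled to the pan-neuronal genes the number was 0, when 17 genes of the whole table were called lower. For each 1000 pan-neuronal counts the sum of the non-clustered genes had a ratio of 0.892, and the groups overlapped. That sum is carried by *Pcdh9*, with a mean of 745 of 1226 CPM with AAV5-*Gfp*. Whether clustered and non-clustered genes differed in their change was not tested.

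Genes that act on the clusters or with their proteins were read from the same fit. Of 14 regulators, among them *Ctcf* and the cohesin subunits that loop promoters to enhancers, 0 passed in either direction and 5 were higher at an unadjusted p under 0.05, where 19.2% of all tested genes were (median log2 fold change 0.18). The number higher at an adjusted p under 0.05 was 3 with DESeq2, with total counts only or without AAV5-*NIS V1 and V2* replicate 3. It was 2 without its replicate 1, and 1 without a filter. In these settings 2405, 2277, 2474, 1862 and 2104 genes of the whole table were called higher, in that order, beside 1872 in the main fit. The smallest p was that of *Smchd1*, a silencer of the clusters, at 0.40 (SE 0.12, adjusted p = 0.0553 with edgeR's quasi-likelihood test). Of 18 partners and proteases 2 were higher and 2 lower (median 0.04), beside 10.1% and 5.27% of all tested genes. *Ptk2b*, a kinase that the cytoplasmic tails bind, rose by a log2 fold change of 1.34 (SE 0.22), and *Abi1*, of the WAVE complex, by 0.32 (SE 0.08). *Nlgn1*, a synaptic adhesion partner, fell by 0.55 (SE 0.12), and *Wasf1*, also of the WAVE complex, fell by 0.51 (SE 0.11), both on the log2 scale. The adjusted p-values of *Ptk2b*, *Abi1*, *Nlgn1* and *Wasf1* from edgeR's quasi-likelihood test were 0.0157, 0.0410, 0.0272 and 0.0266. Of 6 tested genes that flank the clusters (*Slc25a2* had at most 3 counts) 1 was higher, the actin regulator *Diaph1* (0.61, SE 0.16, adjusted p = 0.0460 with the same edgeR test), and 0 were lower. Each of these 5 calls was lost without any 1 AAV5-*Gfp* replicate. In those settings only 12 to 257 genes of the whole table were called higher and 0 to 59 lower. Without AAV5-*NIS V1 and V2* replicate 2, when 1020 genes were called higher and 150 lower, only *Ptk2b* of the 5 passed. The same held when the libraries were scaled to the pan-neuronal genes, with log2 fold changes of -0.19 for *Nlgn1* and -0.14 for *Wasf1*, and limma-voom did not call *Diaph1*.

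Markers of other cells moved with the comparison as well. In AAV5-*NIS V1 and V2*, 8 of 9 macrophage, 6 of 7 T and NK cell, 6 of 6 B and plasma cell, 5 of 6 proliferation, 2 of 6 fibroblast, 1 of 7 satellite glial, 1 of 6 endothelial and 0 of 8 Schwann cell markers were higher, and 0 were lower in each of these lists. At the same adjusted p under 0.05, 10.1% of all tested genes were higher and 5.27% lower. The median log2 fold changes of these lists were 1.66, 3.33, 4.40, 1.42, 0.64, -0.03, 0.03 and 0.08 in that order. Without AAV5-*Gfp* replicate 1, 2 or 3, only 257, 12 and 15 genes of the whole table were called higher. The summed macrophage level ranged from 123 to 176 CPM with AAV5-*Gfp* and from 276 to 504 CPM with AAV5-*NIS V1 and V2*, that of T and NK cells from 2.22 to 7.03 and from 25.5 to 58.7 CPM, and that of B and plasma cells from 4.87 to 11.1 and from 213 to 293 CPM. No marker of these lists was at 0 in any library, and their part in the values of the protocadherins was not tested.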

How the data were processed

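For 6 stranded libraries of total RNA the authors deposited unnormalized counts of reads for each gene symbol, as whole numbers in 1 table. The submitters' processing notes name GRCm38. The aligner, the counter, the annotation, the use of strand and the treatment of reads on shared exons are not given in the sources used here. Libraries were matched to columns by label, and 0 columns were left unmapped.

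The analysis used edgeR 4.0.16 under R 4.3.3. Low genes were removed by filterByExpr given the group (minimum count 10, minimum total 15). TMM factors scaled the libraries, and the quasi-likelihood test (glmQLFTest) was run without covariates on 18593 genes, with Benjamini-Hochberg adjustment over all of them and a threshold of 0.05. CPM refer to TMM library sizes. The fit was tested on simulated data. DESeq2 1.42.0, limma 3.58.1 (voom), other scalings and filters, a replicate block, other thresholds and the omission of each library were alternatives. Positions and exon lengths came from GENCODE M21, in which all 53 members were found by symbol.

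Members and lists were chosen with earlier results of these data known. Named with values were members past the threshold (none), the C-type isoforms, and in each cluster the 2 highest per kilobase and the highest and lowest log2 fold change. Of the members left out by the filter, only some are named. From each other list of protocadherins, regulators, partners and flanking genes, up to 4 called genes were named, or the gene with the smallest p. Further members, and the 3 readthrough genes, were named after their values had been seen, for their spread, separation or unadjusted p. A count of 0 allows up to 3 counts in these libraries, whose depths were similar.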

Additional observations from a re-analysis of the deposited data

How the results depend on the processing

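The count of 0 higher members held under all alternatives. The count of lower members was 0 in the report. It was 1 without a filter on low counts, 1 with DESeq2 and 1 at an adjusted p under 0.1. It was 2 with the replicate number as a block and 3 at an unadjusted p. Each fit that omitted 1 library gave 0. Fits lacking AAV5-*Gfp* replicate 1, 2 or 3 called only 257, 12 and 15 genes of the whole table higher and 59, 0 and 0 lower. Their counts of 0 members therefore decide little. Fits lacking AAV5-*NIS V1 and V2* replicate 1, 2 or 3 called 1095, 150 and 1446 genes lower. *Pcdha4* was called without a filter (adjusted p = 0.0499), with DESeq2 (0.0275) and with the block (0.0287), and *Pcdhgb1* with the block in edgeR (0.0485). Same-numbered libraries correlated by 0.036, 0.066 and 0.107. AAV5-*NIS V1 and V2* replicate 1 correlated best with AAV5-*Gfp* replicate 2 (0.043), and all other pairs of unlike number correlated negatively (-0.104 to -0.0096). The labels give only a replicate number, and these values do not settle whether same-numbered libraries were paired. With the block *Abi1* lost its call and 1 regulator (*Rest*) was higher. The block made 2118 genes higher and 1341 lower in all. The median log2 fold change of tested members (-0.27) was -0.39 with a filter of 1 CPM and between -0.58 (without AAV5-*NIS V1 and V2* replicate 3) and -0.28 with a library left out. Scaled to the pan-neuronal genes, which moved the median of all genes to 0.38, it was 0.069, the log2 ratios of the sums were -0.064 for alpha, 0.016 for beta, 0.099 for gamma and 0.015 for all members (-0.42, -0.33, -0.27 and -0.35 in the report), and 0 non-clustered protocadherins were lower. With a library left out, 0 to 5 of these were lower. The median level per kilobase was 0.0969 for alpha and 0.0423 for gamma over all exonic bases. *Pcdhga4* changed sign in 7 of 16 alternatives, without a call. The cause of these shifts was not tested, except that the filters and the libraries left out change how many members are fitted, from 12 to 52. The low counts, at most 23 for the 34 members that were not tested, limit what can be seen of single isoforms.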
